A study of Saccharomyces cerevisiae with 13 samples.

Results

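The 10 genes described here encode the spindle checkpoint of budding yeast (BUB1 YGR188C, BUB3 YOR026W, MAD1 YGL086W, MAD2 YJL030W, MAD3 YJL013C and MPS1 YDL028C), the anaphase inhibitor securin (PDS1 YDR113C), the protease separase (ESP1 YGR098C) and the Aurora kinase with its partner protein (IPL1 YPL209C and SLI15 YBR156C). They were chosen by name, by their known roles, and all 10 were found among 6205 open reading frames on the arrays. RNA came from a culture of Saccharomyces cerevisiae held in G1 by the mating pheromone alpha factor, released into the rich medium YEPD and sampled every 10 min over 120 min, which the study describes as 2 cell cycles. Each of the 13 samples was labelled with Cy5, and RNA of an asynchronous culture in the same medium, labelled with Cy3, served as reference. Neither strain nor genotype is given in the sources used here, and no time point was repeated. The 4 arrays from 0 to 30 min carry another file stamp (set A) than the 9 arrays from 40 to 120 min (set B), so set and time cannot be told apart at the change from 30 to 40 min.

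The spindle checkpoint holds a cell in metaphase until every chromosome is attached to spindle microtubules. Unattached kinetochores, where Mps1, Bub1, Bub3, Mad1 and Mad2 gather, produce a complex of Mad2, Mad3 and Bub3 that inhibits Cdc20, through which the anaphase-promoting complex (APC/C) finds its mitotic substrates. Once Cdc20 is free, the APC/C marks securin (Pds1) for destruction, separase (Esp1) cuts the cohesin subunit Mcd1, and sister chromatids part. Ipl1, bound to Sli15, destabilises attachments that lack tension. Much of this control acts on proteins, and the arrays measured transcripts.

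Values are log2 ratios of time point over asynchronous culture, so 0 is the level of a mixed population and ratios of different genes do not compare their levels. The direction of the ratio is not stated and is the likely one, since the pheromone-induced genes FUS1, BAR1 and STE2 stood 3.92 ± 0.44, 4.21 ± 0.39 and 2.64 ± 0.40 log2 (SE) above their fitted curves at 0 min. With the opposite direction, peaks would become troughs. All 10 genes had a value on all 13 arrays, and none lay at the limit of the table. Because each time point has 1 array, every error is a standard error from the residuals around a fitted curve. It holds the misfit of the curve as well as measurement error, and the number of arrays limits its precision.

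ESP1 was the 1 gene of the 10 that passed the test for periodicity. Each gene was fitted with 1 wave of 60 min (a cosine and a sine term) and a term for the array set, and the periodic part was tested by limma's moderated F test with Benjamini-Hochberg adjustment over 6183 genes (threshold 0.05). By the same test 5.47% of all genes were called, and 1 of 10 is too small a count to set apart from that share. At an unadjusted p under 0.05 there were 2 of the 10 genes (ESP1 and MPS1), against 21.2% of all genes. The median peak-to-trough size, the full height of the fitted curve, was 0.274 log2 for the 10 genes and 0.247 log2 for all genes tested.

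**Figure D1:**
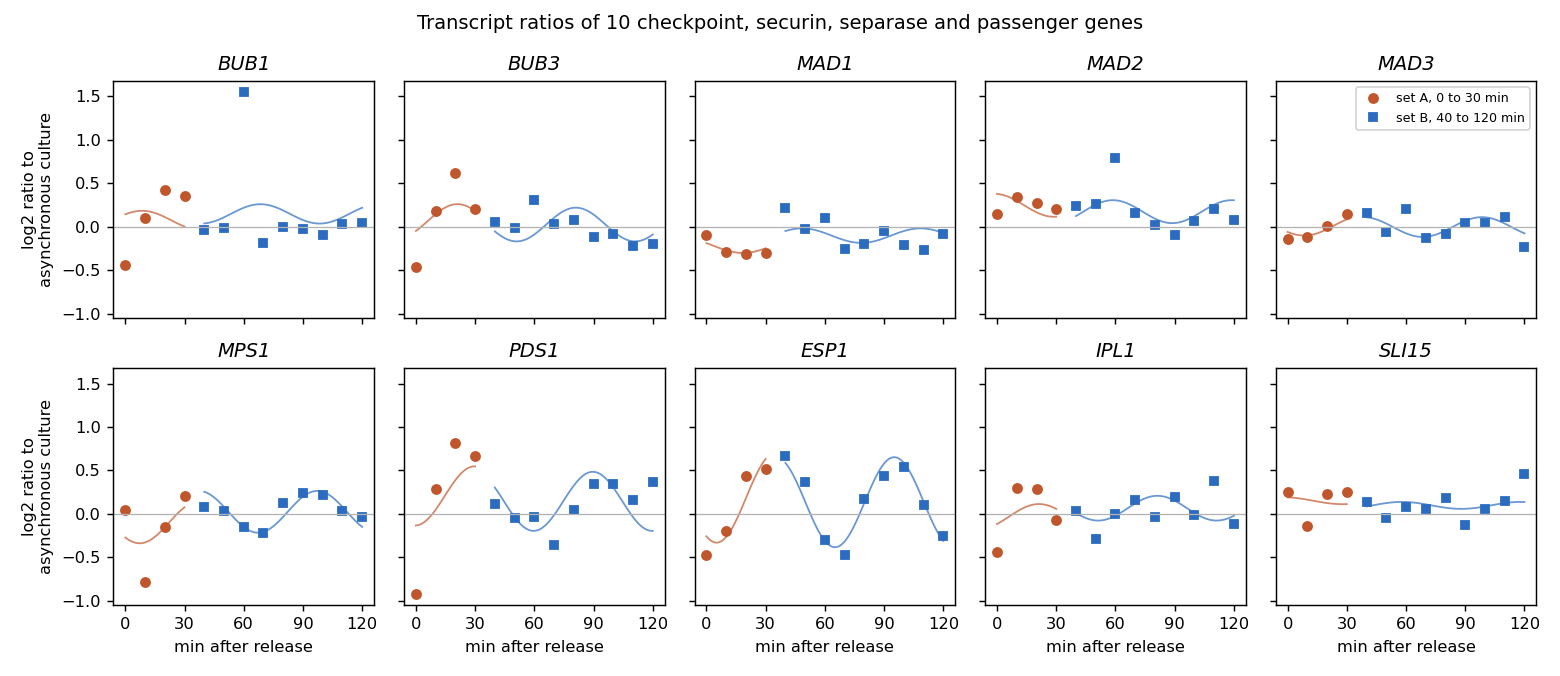
Log2 ratio to the asynchronous culture (vertical axis) by min after release (horizontal axis) for each of the 10 genes, 1 array per point, with set A as circles, set B as squares and the fitted 60 min curve as lines, offset between sets. ESP1 runs through 2 waves, PDS1 starts low at -0.92 at 0 min, and BUB1 has a single high value of 1.55 at 60 min.

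ESP1 encodes separase, the protease that starts anaphase. In the first cycle its log2 ratio was -0.47 at 0 min, -0.20 at 10 min, 0.44 at 20 min, 0.52 at 30 min, 0.66 at 40 min and 0.36 at 50 min. In the second it was -0.31 at 60 min, -0.48 at 70 min, 0.17 at 80 min, 0.43 at 90 min, 0.53 at 100 min and 0.10 at 110 min, and at 120 min it was -0.25. The transcript was therefore above the asynchronous culture from 20 to 50 min and again from 80 to 110 min, and below it around 0, 60 to 70 and 120 min. The fitted curve spanned 1.04 ± 0.13 log2, or 2.05-fold (adjusted p = 0.00383, limma), with its peak at 35.1 ± 1.3 min of the cycle. In order of p it was number 16 of 6183 genes. Within the 9 arrays of set B alone the size was 1.04 ± 0.12 log2 with a peak at 36.7 min (adjusted p = 0.00354, limma). The call held in all 13 fits that left out 1 array, with sizes from 0.96 to 1.10 log2, and was lost at a 55 min period (adjusted p = 0.0858, where limma called 6 genes in all). In a bulk sample, fewer cells holding the transcript and less transcript per cell cannot be told apart. Whether the rhythm of ESP1 differs from that of the other 9 genes was not tested.

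PDS1 encodes securin, the inhibitor and chaperone of separase. Its log2 ratio was -0.92 at 0 min, 0.29 at 10 min, 0.82 at 20 min, 0.67 at 30 min, 0.12 at 40 min and -0.048 at 50 min. In the second cycle it was -0.033 at 60 min, -0.36 at 70 min, 0.043 at 80 min, 0.35 at 90 min, 0.34 at 100 min and 0.16 at 110 min, and it was 0.37 at 120 min. The highest value came at 20 min in the first cycle, against 40 min for ESP1. In the second cycle the values at 90 and 100 min were nearly equal (0.35 and 0.34), and ESP1 was highest at 100 min. Within set B the fitted peak came at 38.7 min for PDS1 and at 36.7 min for ESP1, so the order of the first cycle was not seen there. The fitted size of PDS1, 0.68 ± 0.27 log2, did not pass (adjusted p = 0.299, limma). It rests in part on the arrested sample, since without the 0 min array it was 0.36 log2 (adjusted p = 0.427, limma), and within set B it was 0.35 ± 0.19 log2 (adjusted p = 0.527, limma).

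The difference between both profiles, log2 ESP1 minus log2 PDS1, compares them within each array. It was 0.45 at 0 min, then -0.49, -0.37 and -0.15 at 10, 20 and 30 min, and 0.55 and 0.41 at 40 and 50 min. It was -0.27 and -0.12 at 60 and 70 min, between -0.062 and 0.19 from 80 to 110 min, and -0.62 at 120 min. The ratio of ESP1 to the asynchronous culture was thus higher than that of PDS1 at 0, 40 and 50 min. It was lower at 10 to 30 min, at 60 and 70 min and at 120 min. From 80 to 110 min both ratios lay within 0.19 log2 of each other. The step between 30 and 40 min falls on the change of array set. These differences have no replicate and no test.

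**Figure D2:**
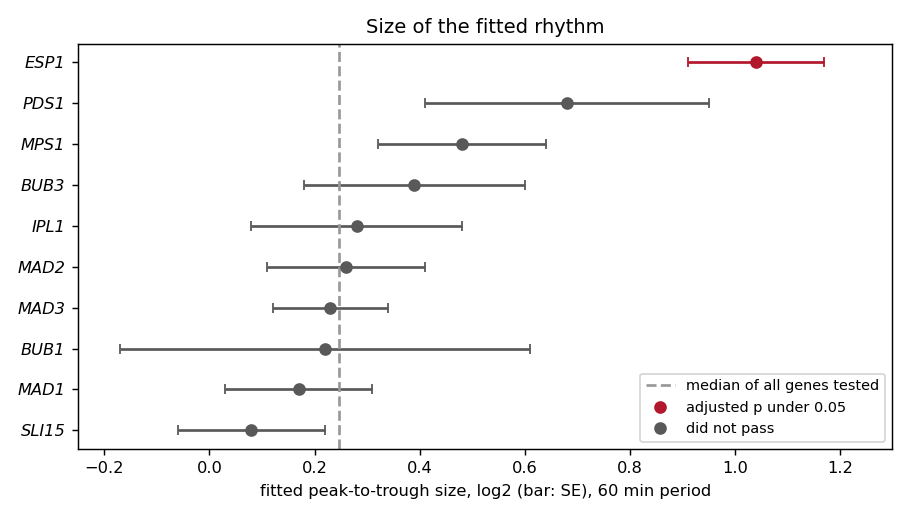
Fitted peak-to-trough size in log2 (horizontal axis, bar: SE) for each of the 10 genes at a 60 min period, with the median of all 6183 genes tested (0.247 log2) as a dashed line. ESP1 stands at 1.04 log2 and is the gene that passed, and the other 9 lie between 0.08 and 0.68 log2.

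The 6 checkpoint genes gave no call for periodicity. MPS1, a kinase that acts at the head of the checkpoint and in spindle pole duplication, came nearest, with a size of 0.48 ± 0.16 log2 and a peak at 37.3 ± 3.4 min (adjusted p = 0.192, limma). Its lowest log2 ratio was -0.78 at 10 min, and the other 12 arrays lay between -0.22 at 70 min and 0.24 at 90 min. BUB3, the binding partner of Bub1 and Mad3, had a size of 0.39 ± 0.21 log2 (adjusted p = 0.458, limma), with a low of -0.47 at 0 min and a high of 0.62 at 20 min. Without the 0 min array its size was 0.17 log2, and within set B 0.15 log2. After 20 min its ratios lay between -0.22 at 110 min and 0.31 at 60 min, without a second wave of the same height.

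MAD1 and MAD3 had the narrowest ranges among the checkpoint genes. MAD1, which anchors Mad2 at the kinetochore, ranged from -0.31 at 20 min to 0.22 at 40 min, with a size of 0.17 ± 0.14 log2 (adjusted p = 0.72, limma). MAD3, a component of the complex that inhibits Cdc20, ranged from -0.24 at 120 min to 0.21 at 60 min, with a size of 0.23 ± 0.11 log2 (adjusted p = 0.428, limma). A missed threshold does not show that these transcripts are constant.

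BUB1, a kinase that recruits the other checkpoint proteins to the kinetochore, was marked by a single array. Its log2 ratio was -0.44 at 0 min, 0.099 at 10 min, 0.43 at 20 min and 0.36 at 30 min. At 60 min it was 1.55, while the 8 other arrays of set B lay between -0.19 at 70 min and 0.039 at 120 min. The values at 50 and 70 min, -0.014 and -0.19, stood close to the reference on both sides of the high one. At 120 min, 1 nominal cycle later, no such value recurred. The fitted 60 min rhythm of BUB1 was 0.22 ± 0.39 log2 (adjusted p = 0.918, limma), and 0.67 log2 within set B (adjusted p = 0.586).

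After these values were seen, the departure of the 60 min array was tested in all genes, as a term for that array added to the periodic fit. BUB1 stood 1.74 ± 0.23 log2 above its curve, or 3.33-fold (adjusted p = 0.00141, limma, number 30 of 6165 genes in order of p), and MAD2 0.64 ± 0.15 log2 (adjusted p = 0.0465). These were 2 of the 10 genes, both higher, against 2.09% of all genes called in either direction and 1.10% called higher. As BUB1 prompted the test, neither its p nor the count of 2 is independent of the choice. The count therefore cannot be set against the share of all genes. The BUB1 call held in all 12 fits that left out another array (1.63 to 1.83 log2) and within set B (1.58 log2, adjusted p = 0.000213). MAD2 lost its call within set B (adjusted p = 0.065) and in 9 of the 12 such fits, those without 20, 30, 40, 50, 70, 80, 100, 110 or 120 min (adjusted p = 0.0558 to 0.101, limma). All these fits keep the 60 min array, so they do not test its single values. MAD3 and BUB3 departed by 0.37 ± 0.12 and 0.52 ± 0.23 log2 and did not pass (adjusted p = 0.203 and 0.435).

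MAD2, which in its closed form binds Cdc20, had its highest log2 ratio, 0.80, at 60 min as well. Its other 12 values lay between -0.092 at 90 min and 0.34 at 10 min, and its fitted rhythm was 0.26 ± 0.15 log2 (adjusted p = 0.528, limma), or 0.13 log2 without the 60 min array, 0.40 without 0 min and 0.44 within set B. Of the 10 genes, 4 (BUB1, BUB3, MAD2 and MAD3) had their highest value of set B at 60 min, against 16.9% of all genes. These 4 include BUB1, which prompted the test of that array. Spread over all genes was widest in set A, with 24 to 107 values at the limit of the table and log2 SDs of 0.45 to 0.63. Within set B the 60 min array stood apart: 23 of its values lay at that limit, against 0 to 14 on the 8 other arrays. Its log2 SD was 0.43, against 0.31 to 0.35. HGH1 (YGR187C), whose systematic name is next to that of BUB1, was listed at the lower limit on that array, between values of -0.84 at 50 min and -0.23 at 70 min. CRH1 (YGR189C), the neighbour by name on the other side, stood at -0.76 on that array, between -1.06 at 50 min and 0.93 at 70 min. HGH1 and CRH1 were named after their values were seen. The part of that array's spread in the BUB1 and MAD2 values was not tested.

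IPL1 and SLI15, the kinase and the scaffold of the chromosomal passenger complex, gave no rhythm that passed. IPL1 ranged from -0.43 at 0 min to 0.38 at 110 min, with a size of 0.28 ± 0.20 log2 (adjusted p = 0.61, limma). That size was 0.12 log2 without the 0 min array, 0.47 without 80 min, 0.46 without 110 min and 0.11 within set B, and passed in none of these fits. SLI15 ranged from -0.14 at 10 min to 0.46 at 120 min, with 0.08 ± 0.14 log2 (adjusted p = 0.919, limma), the smallest size of the 10. Across the 13 arrays their ratios did not run together (Pearson r = -0.32, a description with no test).

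The arrested sample was compared with the fitted curve in the same way, by a term for the 0 min array. PDS1 lay 1.40 ± 0.27 log2 below its curve, a 2.65-fold difference (adjusted p = 0.0124, limma), and was the 1 call among the 10 genes, against 5.23% of all genes called in either direction and 2.08% called lower. Its ratio of -0.92 at 0 min was its lowest, the next being -0.36 at 70 min. The 60 and 120 min arrays, which hold the same place in a 60 min cycle, averaged 0.17 and differed from each other by 0.40, so that 0 min lay 1.09 below their mean. Errors of the 0 min departures come from scatter on the other arrays, most of them in set B. Over all genes the log2 SD was 0.46 on the 0 min array and 0.31 to 0.43 on the arrays of set B. Should single values at 0 min scatter more widely too, these errors and p values are too small, which was not tested. The PDS1 departure held in all 12 fits without another array (from -1.55 to -1.30 log2), each of which keeps the unreplicated 0 min value. It depends on how the array sets are handled: it was -0.93 log2 without the set (adjusted p = 0.138) and -1.02 with linear time in its place (adjusted p = 0.158), and it missed the threshold with quantile-normalized arrays (-1.23, adjusted p = 0.0557, limma).

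Of the other 9 genes, 6 also lay below and 3 above their curves at 0 min without passing. The median departure of the 10 genes was -0.399 log2, against -0.003 for all genes. At an unadjusted p under 0.05 there were 3 of the 10 genes (PDS1, BUB3 and, upward, MPS1), against 19.2% of all genes (limma). BUB3 departed by -0.75 ± 0.24 log2 (adjusted p = 0.102, limma, and 0.0457 at a 65 min period), BUB1 by -1.05 ± 0.56 (0.355), IPL1 by -0.57 ± 0.26 (0.263), MAD2 by -0.42 ± 0.25 (0.409) and ESP1 by -0.38 ± 0.19 (0.33). The wide error of BUB1 goes with its 60 min value: without that array the departure was -0.72 log2 and passed (adjusted p = 0.031, limma). MPS1 was the gene with the largest departure upward, 0.56 ± 0.22 log2 (adjusted p = 0.171, limma), but 0.29 without the 10 min array and 0.28 without the array set. Without the set the departures of BUB3, MAD2 and ESP1 were also smaller in size, at -0.49, -0.23 and -0.22 log2, and that of ESP1 was -0.80 at a 55 min and -0.10 at a 65 min period, none of them past the threshold. BUB1, BUB3, PDS1 and IPL1 had their lowest value of all 13 arrays at 0 min, 4 of 10 genes against 11.3% of the genes with all values. The 10 genes share 1 array at 0 min and are not replicates of the arrested state. Neither their median nor these counts were tested against all genes.

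**Figure D3:**
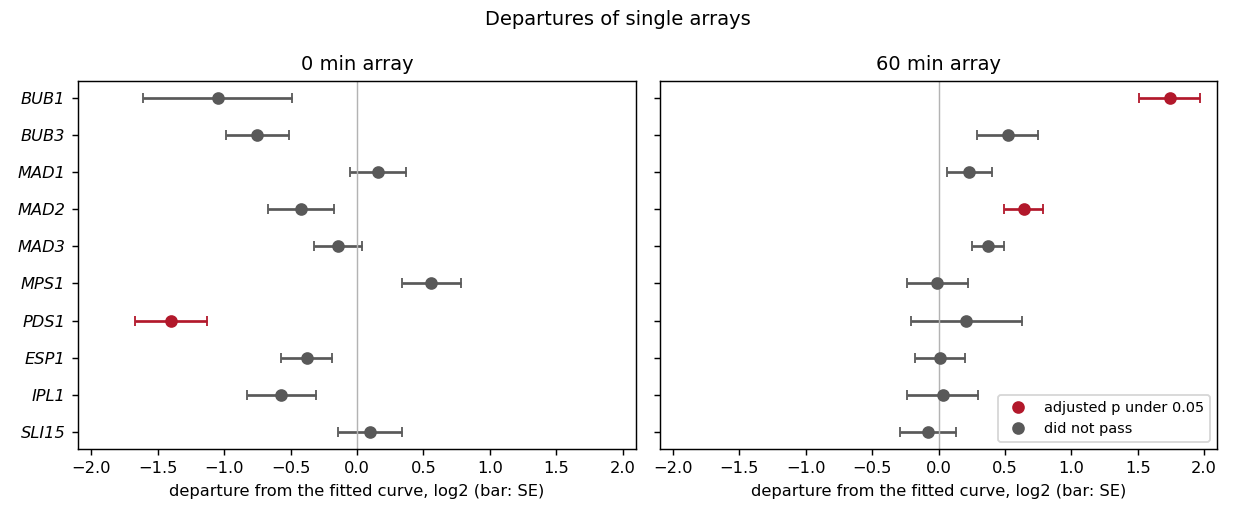
Departure of the 0 min array (left) and of the 60 min array (right) from the fitted curve in log2 (horizontal axis, bar: SE) for each of the 10 genes. PDS1 passed at 0 min (-1.40 log2), BUB1 (1.74 log2) and MAD2 (0.64 log2) passed at 60 min.

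Values 60 min apart were set side by side, as a description. There are 7 such pairs of arrays, from 0 and 60 min to 60 and 120 min, of which 4 join an array of set A to one of set B. Their sign depends on a gene's offset from the asynchronous culture as well as on any rhythm. ESP1 had the same sign in 7 of 7 pairs, with a mean absolute difference of 0.18 log2. All 7 pairs had the same sign in 17.5% of 5871 genes with 13 values, where the median was 5 pairs and 0.22 log2. MAD2, which lay above 0 on 12 of 13 arrays, had 6 such pairs, with a mean absolute difference of 0.33 log2. MPS1 had 5, PDS1, MAD1 and SLI15 had 4, BUB3 and MAD3 had 3, BUB1 had 2 and IPL1 had 1. Among the 10 genes the mean absolute difference was largest for BUB1 (0.67 log2) and PDS1 (0.50 log2).

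Profiles of genes whose products work together were compared by Pearson's r over the 13 arrays, as a description, since arrays share the reference and the set. Over all 45 pairs of the 10 genes the median r was 0.18, and 17 pairs were negative. Securin and separase had r = 0.63 (0.49 in set B). BUB1 and BUB3, which form a complex, also had r = 0.63, and 0.82 without the 60 min array. The highest value, 0.82 for BUB1 and MAD2, fell to 0.33 without that array. BUB1 and PDS1 had 0.31 with it and 0.91 without it, but -0.14 within set B with that array included. BUB3 and PDS1 had r = 0.61 over all arrays and -0.57 within set B, so their likeness was not seen within set B. No r was computed for the first 30 min alone, which are the arrays of set A. MAD1 and MAD2, which bind each other, had r = 0.28.

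Over all genes, the profiles most like that of ESP1 were those of GDA1, a Golgi diphosphatase (r = 0.91), NVJ3 (0.89) and SIM1 (0.89), each itself called periodic. Within set B they were ULS1 (0.98), CLB4, a B-type cyclin (0.96), and KIP3, a kinesin motor (0.96). For PDS1 they were NUD1, a spindle pole component (0.90), TAL1 (0.90) and VNX1 (0.89), whose r within set B was 0.61, 0.68 and 0.65. The genes most like BUB1 were PAU23 (0.96), MMS4 (0.94) and PCS60 (0.92), with log2 ratios of 2.16, 1.09 and 1.15 at 60 min, and without that array the r was 0.76, 0.73 and 0.87. For MPS1 they were SYC1 (0.92), RSC4 (0.90) and YNL095C (0.90). The nearest profile was TDA1 for BUB3 (0.95), SMT1 for MAD1 (0.86), YGR137W for MAD2 (0.96), AIM46 for MAD3 (0.80), BUD2 for IPL1 (0.84) and MSS11 for SLI15 (0.82).

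The surrounding pathway was read from a list of 42 partner genes, of which 41 were measured. By limma 9 of these 41 (22.0%) were periodic, against 5.47% of all genes. That count fell to 4 without the 50 or 70 min array, 5 without 90 min and 2 without 80 min, and it was 6 within set B. The list was chosen with earlier results of these data known, so its share is no test against that of all genes. Of 5 cohesin genes 4 were called, peaking close together: MCD1, the subunit cut by separase, spanned 2.47 ± 0.47 log2 with a peak at 19.8 ± 1.6 min (adjusted p = 0.0239). PDS5, which maintains cohesion, spanned 1.43 ± 0.25 log2 at 21.4 ± 1.6 min (adjusted p = 0.0167, limma), SMC3 1.28 ± 0.25 at 19.4 ± 1.6 min and SMC1 0.89 ± 0.17 at 19.0 ± 1.6 min. Leaving out 1 array ended the MCD1 call at 20, 50, 70 or 80 min, that of SMC3 at the same 4 arrays, that of SMC1 at 20, 50, 70 or 90 min and that of PDS5 at 80 min. Within set B, SMC3 did not pass (adjusted p = 0.061, limma).

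CDC20, the target of the checkpoint, peaked at 58.2 ± 2.1 min with 1.71 ± 0.33 log2 (adjusted p = 0.0239, limma). At 20 and 30 min it stood at -1.16 and -1.26, where PDS1 had 0.82 and 0.67. At 60 and 120 min CDC20 reached log2 ratios of 0.78 and 2.25, where PDS1 had -0.033 and 0.37. An opposite course of these transcripts was therefore not seen at 120 min. The call was lost without the 0, 80 or 90 min array and within set B (adjusted p = 0.0676). CDH1, the other APC/C activator, did not pass (0.20 ± 0.13 log2, adjusted p = 0.589, limma). None of 13 APC/C core subunits was called by limma (1 at an unadjusted p under 0.05, DOC1). Of all genes 5.47% were called, and 21.2% had an unadjusted p under 0.05. With 13 genes the counts are too small to set apart from these shares. The core subunit APC11 had its own single departing value, a log2 ratio of -2.69 at 60 min, 2.74 ± 0.17 log2 below its curve (adjusted p = 6.92e-06, limma). ZDS1, of the release network, lay 0.63 ± 0.13 log2 above its curve there (adjusted p = 0.0306, and 0.0684 within set B, limma). Of the 41 partners these were the 1 called lower and the 1 called higher at 60 min. The share of all genes called in either direction was 2.09%. Both genes were named after their values were seen.

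Of 9 genes of the anaphase release network, which frees the phosphatase Cdc14 with the help of separase, 3 were periodic. SPO12 spanned 1.20 ± 0.18 log2 with a peak at 58.7 ± 1.7 min (adjusted p = 0.00912, limma), SLK19, which is cut by separase, 1.0 ± 0.18 log2 at 25.1 ± 1.8 min (adjusted p = 0.0182) and CDC14 0.52 ± 0.10 log2 at 42.7 ± 1.6 min (adjusted p = 0.025). SPO12 kept its call whichever array was left out, SLK19 lost it without 80 or 90 min, and CDC14 without 30, 40, 50, 70 or 80 min and within set B (adjusted p = 0.0773, limma). Among 5 kinetochore genes that dock the checkpoint, NUF2 was called (0.64 ± 0.13 log2 at 49.8 ± 1.7 min, adjusted p = 0.0323, limma), and lost its call in 7 of 13 fits, without 30, 40, 50, 70, 80, 90 or 100 min, and within set B (adjusted p = 0.0508). BIR1, a further passenger subunit, had 0.11 ± 0.11 log2 (adjusted p = 0.787) and the shugoshin SGO1, a tension sensor, 0.64 ± 0.20 log2 with a peak at 35.2 ± 3.3 min (adjusted p = 0.153, and 0.0335 without the 120 min array, limma). None of 5 phosphatase genes was called (0 also at an unadjusted p under 0.05, limma). With 5 genes that count cannot be set apart from the 5.47% of all genes called.

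**Figure D4:**
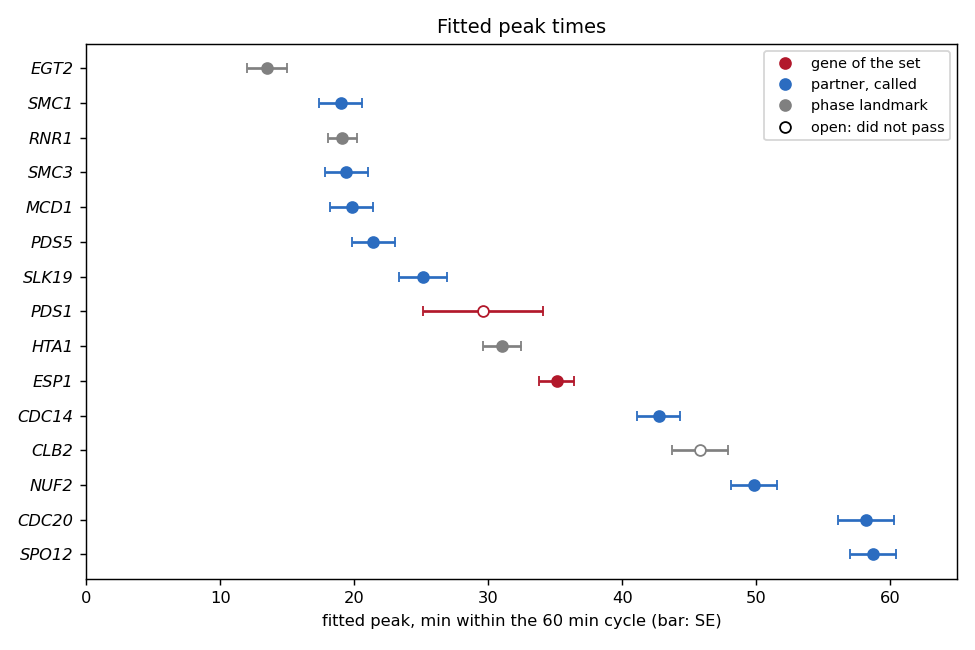
Fitted peak in min within the 60 min cycle (horizontal axis, bar: SE) for ESP1 and PDS1, the 9 partner genes that were called and 4 phase landmarks, with open symbols for genes that did not pass. ESP1 at 35.1 min lies after HTA1 (31.0 min) and before CDC14 (42.7 min) and CLB2 (45.8 min).

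On this scale ESP1 came after the cohesin genes, between the histone gene HTA1 of S phase (31.0 ± 1.4 min) and the mitotic cyclin CLB2 (45.8 ± 2.1 min, adjusted p = 0.0946, limma). The G1/S gene RNR1 peaked at 19.1 ± 1.1 min and the M/G1 gene EGT2 at 13.5 ± 1.5 min (adjusted p = 0.0208, limma). EGT2 showed no such peak in the first cycle, with -3.04 at 0 min as its highest and -3.85 at 20 min as its lowest value. Its highest value of all was 1.28 at 70 min. It passed within set B (adjusted p = 0.00514), but not in fits with no set term (0.628) or with linear time instead (0.101, limma). Omitting the 70 or 80 min array also ended its call (0.0832 and 0.0678, limma). The peaks of SMC1, SMC3, MCD1 and PDS5 lie within their standard errors of their neighbours in this order, as do those of PDS1 and HTA1 and those of CDC20 and SPO12. The order of peaks has no test of its own. Of the 41 partner genes, 2 were called lower at 0 min and 1 higher, against 5.23% of all genes called in either direction. These counts are too small to set apart from that share. At 0 min MCD1 and ZDS2, of the release network, departed downward (-1.88 ± 0.49 and -1.45 ± 0.32 log2, adjusted p = 0.0454 and 0.0234, limma) and CDH1 upward (0.58 ± 0.15 log2, adjusted p = 0.0454). MCD1 lost that call in 9 of 12 fits without another array, CDH1 in 9 and ZDS2 in 2 (without 10 or 90 min). These 3 calls also depend on how array sets and scaling are handled, as that of PDS1 does. Without the set the departures were -1.51 log2 for MCD1 (adjusted p = 0.0799), -0.39 for ZDS2 (0.802) and 0.16 for CDH1 (0.797), and with quantile-normalized arrays they were -0.90 (0.292), -0.94 (0.178) and 0.44 (0.164, limma). With linear time in place of the set none of the 3 passed either (adjusted p = 0.134 for MCD1 and ZDS2, 0.291 for CDH1, limma).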

How the data were processed

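The deposited table holds log10 ratios, 1 per feature and array, made by the authors; the base was read from the values, which end exactly at 2 and -2. How the arrays were scanned, background-corrected, normalized and averaged over spots is not given in the sources used here. Medians per array lay between -0.0031 and 0.00736, and 6157 to 6204 open reading frames had a value per array. Values were multiplied by 3.32 to give log2. The 272 values at or beyond 1.99 (log10) in size were treated as missing, and 12 control rows were left out. Of 6205 open reading frames, 5703 were named through the RefSeq table of assembly R64. The files name no build, so no coordinates are given.

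Genes with at least 11 of 13 values were fitted with limma 3.58.1 in R 4.3.3 (9 residual degrees of freedom with all values). Set B alone required 8 of 9 values. Tables were made with Python 3.11.15 and pandas 2.3.3. Genes named are the 10 genes, CDC20, MCD1, BIR1, SGO1, up to 3 called partners per class, 4 landmarks and the 3 most alike profiles. SMC1, APC11, HGH1, CRH1, CDH1, DOC1, ZDS1 and ZDS2 were added after their values were seen. The genes, the lists and the tests were chosen with earlier results of these data known. A planned search of promoter motifs was not run.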

Additional observations from a re-analysis of the deposited data

How the results depend on the processing

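The count of 1 periodic gene among the 10 was the same in 23 of 24 alternatives and 0 at a 55 min period. The count over all genes (338) became 6 at 55 min, 546 with quantile-normalized arrays and 73 with a second harmonic (30 min), and ran from 143 to 381 when 1 array was left out, with 194, 191, 197, 143, 151 and 209 without 30, 40, 50, 70, 80 or 90 min. The partner count (9) became 0 at 55 min and 3 with a second harmonic, and ran from 2 to 11 without 1 array. At 0 min the count among the 10 genes (1, PDS1) became 0 without the array set, with linear time in its place or with quantile-normalized arrays, 2 at a 65 min period, and ran from 1 to 2 without 1 array (2 without 60 min). Over all genes (322) it became 556 at 65 min, 210 with linear time and 91 with quantile-normalized arrays, and ran from 214 (without 90 min) to 367 without 1 array. At 60 min, a comparison added after seeing the data, the count of 2 became 1 at 55 min, without the array set and within set B, and ran from 1 to 2 without 1 array; over all genes (129) it became 72 with a second harmonic. The cause of these shifts was not tested. The departures of PDS1 at 0 min and of BUB1 at 60 min kept their sign in all 22 and 23 alternatives. All of these keep the array in question, so they do not test a value that has no replicate. Correlations without the 60 min array were also added after seeing the data. Signal over background is unknown, so no limit from dim spots can be given.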
